A study of Mus musculus with 12 samples.

Results

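Cadherins are cell-surface proteins that hold neighbouring cells together, and their genes carried m6A peaks in J1 mouse embryonic stem cells. Of 6074 genes with a listed peak, 22 belonged to the cadherin superfamily by symbol, that is any gene whose name begins with Pcdh, or with Cdh, Dchs, Fat, Celsr, Dsg or Dsc and a digit. The 22 genes were Cdh2, Cdh3, Cdh4, Cdh6, Cdh11, Dsg2, Dchs1, Fat1, Fat2, Celsr1, Celsr2, Celsr3, Pcdh1, Pcdh7, Pcdh10, Pcdh17, Pcdh18, Pcdh19, Pcdhac1, Pcdhb14, Pcdhb20 and Pcdhga11. The reference annotation holds 110 such genes. Peaks of the clustered protocadherins, which share a listed gene name, were counted once by their coordinates. Overlapping peaks of the libraries were merged, which gave 78 merged peaks.

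The libraries came from J1 embryonic stem cells kept on irradiated mouse embryonic fibroblast feeders and carrying a lentiviral shRNA, with puromycin selection of stable lines. There were 3 groups of 2 m6A-IP libraries each, in which an anti-m6A antibody pulled down fragmented poly(A) RNA: Mettl14 knockdown, Mettl3 knockdown and scramble control. The scramble cells also carried an shRNA and were selected alike, so both knockdowns are set against infected cells. Another 6 libraries, labelled as having no antibody, were not analysed here as samples of their own. Each of 4 deposited tables sets 1 knockdown IP library against 1 scramble IP library. The tables form 2 sets, and the Mettl14 and Mettl3 tables of a set share their scramble library, so the knockdown comparisons are not independent. No source used here ties a set to a replicate number or says that the sets are separate cultures, and the spread between sets may be technical. Feeder cells can contribute RNA. Of 13 fibroblast marker genes, 0 to 2 had a listed peak in a library, and of 10 embryonic stem cell markers 3 or 4 did. Peaks do not measure expression, so the feeder share was not tested. The tables hold no expression values either, so the depletion of Mettl14 or Mettl3 was not checked here.

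N6-methyladenosine (m6A) is written on mRNA by a complex of METTL3, its catalytic subunit, and METTL14, which helps bind the RNA. It is known for clustering around stop codons and in long internal exons, often at the letters GGAC. Classical cadherins bind the same cadherin on the next cell and are tied through catenins to actin. Fat and Dachsous cadherins and the seven-pass Celsr cadherins act in planar cell polarity, and protocadherins give neurons their surface identities. E-cadherin (Cdh1), the main adhesion molecule of embryonic stem cells, had no listed peak in any of the 4 tables. The listed genes comprised 3 of 5 type I classical cadherins, 2 of 13 type II classical cadherins, 1 of 9 desmosomal cadherins, 3 of 6 Fat and Dachsous genes, 3 of 3 Celsr genes, 6 of 12 non-clustered protocadherins and 4 of 57 clustered protocadherin names. None of 5 atypical cadherins was listed.

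The sites that turned up in every library came from Celsr1, Celsr2, Celsr3, Fat1, Cdh3 and the protocadherin gamma cluster. The stretches below are from the merged peaks that had a peak in all 6 libraries, without those of the protocadherin cluster, taken from GENCODE M21 transcripts on mm10, each 121 nt of coding sequence within an exon. Each is printed 5′ to 3′ on the transcript strand and lies within a peak of every library. It is centred on the GGACT nearest the middle of the longest run that all 6 libraries' peaks shared. Capitals mark GGACT. That run holds none in Celsr1, where the stretch is taken around its middle.
Cdh3, last exon, chr8:106555314-106555434, plus strand: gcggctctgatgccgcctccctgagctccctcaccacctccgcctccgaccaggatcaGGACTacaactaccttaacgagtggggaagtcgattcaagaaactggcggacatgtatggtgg
Fat1, last exon, chr8:45050904-45051024, plus strand: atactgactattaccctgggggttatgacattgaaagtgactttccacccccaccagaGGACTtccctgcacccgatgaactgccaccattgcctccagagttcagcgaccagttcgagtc
Celsr1, first exon, chr15:86032863-86032983, minus strand: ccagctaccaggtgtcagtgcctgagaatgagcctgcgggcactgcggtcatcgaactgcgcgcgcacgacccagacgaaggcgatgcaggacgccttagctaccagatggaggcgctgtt
Celsr2, first exon, chr3:108413114-108413234, minus strand: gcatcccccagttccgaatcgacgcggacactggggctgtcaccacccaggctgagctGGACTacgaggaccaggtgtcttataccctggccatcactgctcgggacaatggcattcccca
Celsr3, first exon, 5′ peak, chr9:108828058-108828178, plus strand: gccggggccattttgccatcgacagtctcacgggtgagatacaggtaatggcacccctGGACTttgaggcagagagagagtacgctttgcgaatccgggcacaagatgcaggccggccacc
Celsr3, first exon, 3′ peak, chr9:108829293-108829413, plus strand: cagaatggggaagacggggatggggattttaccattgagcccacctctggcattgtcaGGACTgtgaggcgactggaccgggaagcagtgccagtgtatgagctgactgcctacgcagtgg
Celsr3, exon 35, chr9:108849091-108849211, plus strand: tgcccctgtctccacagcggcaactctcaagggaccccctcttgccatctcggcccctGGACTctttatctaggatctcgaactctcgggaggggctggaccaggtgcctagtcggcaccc
The others lay mostly in 3′ UTRs, and only the letters around a GGACT are shown, 25 nt each.
Celsr1, 3′ UTR, chr15:85899331-85899355, minus strand: tcaaaggccaGGACTtctcaccaag
Celsr2, 3′ UTR, chr3:108392275-108392299, minus strand: cgccggaagtGGACTcccctttccc
Against these stand 2 merged peaks that both scramble libraries and no knockdown library had, shown because they were lost in all 4 tables. Neither held a GGACT in the part of its peaks that the libraries shared and the transcript covered (294 nt for Celsr3, 169 nt for Celsr2), so the Celsr3 stretch is taken around its middle and the Celsr2 stretch starts at the start codon. The last letters of the Celsr2 stretch lie in 1 of the 2 scramble peaks.
Celsr3, exon 2, chr9:108831768-108831888, plus strand: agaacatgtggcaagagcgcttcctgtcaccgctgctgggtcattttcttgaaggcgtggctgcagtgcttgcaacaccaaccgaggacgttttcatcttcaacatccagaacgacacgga
Celsr2, start codon, chr3:108415374-108415494, minus strand: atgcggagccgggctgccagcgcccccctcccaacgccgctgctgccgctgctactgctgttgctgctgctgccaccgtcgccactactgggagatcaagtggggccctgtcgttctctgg

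GGACT was read in windows of 200 nt of transcript centred on each scramble peak. It was present in 25 of 46 member windows (54.3%, 95% Wilson interval 40.2 to 67.8) in set 1 and in 19 of 35 (54.3%, interval 38.2 to 69.5) in set 2. Over all scramble peaks with a gene the shares were 33.7% of 5972 windows and 32.8% of 4183 windows. In 1020 windows of the same transcripts outside any member peak, 172 held it (16.9%, interval 14.7 to 19.3). The reverse complement AGTCC was present in 13.0% and 11.4% of member windows, in 18.6% and 19.3% of windows over all scramble peaks, and in 18.4% of those outside peaks. A match is a description of the letters and not a measured methylation site.

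Member peaks lay more often in long coding exons, and less often at the stop codon, than scramble peaks in general. In the scramble libraries 74.0% of 50 member peaks in set 1 and 81.1% of 37 in set 2 were mostly coding, against 55.0% and 59.8% of all scramble peaks with a gene. A stop codon was covered by 12.0% (6 peaks, interval 5.62 to 23.8) and 10.8% (4 peaks, interval 4.29 to 24.7) of member peaks, against 38.8% and 40.4% overall. Peaks that were coding and in an exon of at least 1000 nt other than the last made up 56.0% (interval 42.3 to 68.8) and 67.6% (interval 51.5 to 80.4) of member peaks. Over all scramble peaks with a gene they made up 12.2% and 13.9%. The clustered protocadherins supplied 16 of the 28 such member peaks in set 1 and 15 of the 25 in set 2. Their own peaks covered a stop codon in 0 of 20 and 0 of 15 cases, so the contrast rests in large part on them. Member peaks in a first exon were 58.0% and 64.9%, against 11.0% and 13.1% overall. The clustered protocadherins, whose variable exons are first exons, supplied 19 and 15 of these member peaks. The Wilson intervals cover counting error only, and peaks of a gene or cluster are not independent.

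**Figure D1:**
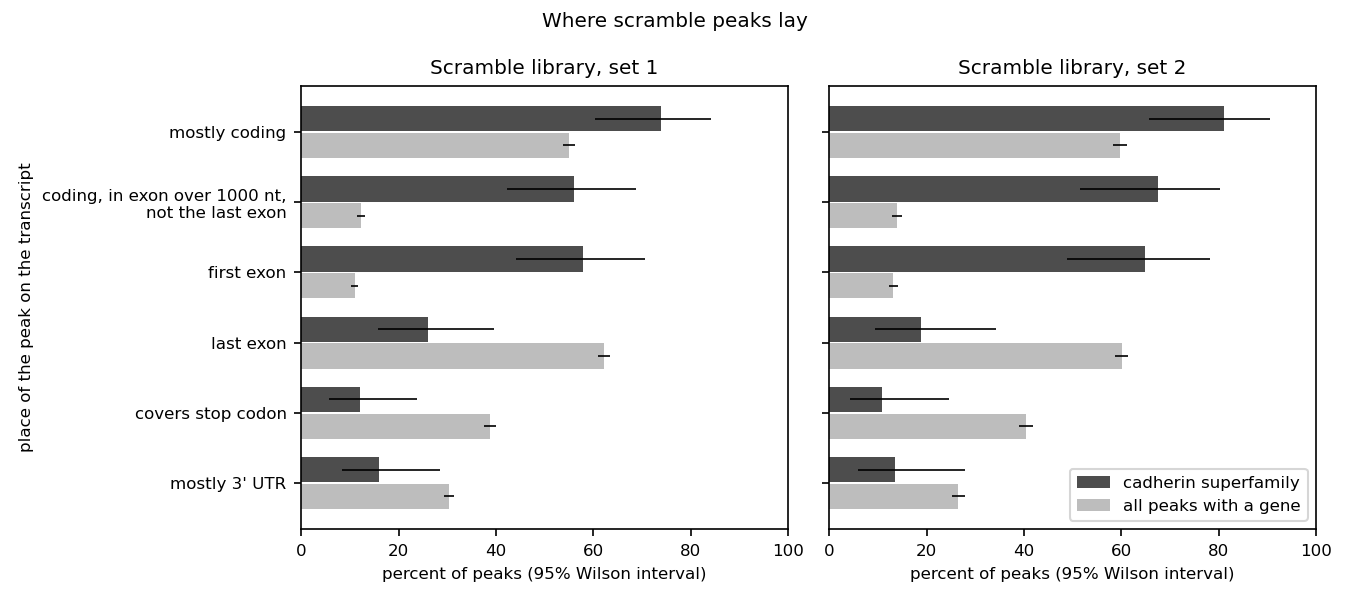
Percent of scramble peaks in each place on the transcript (x axis, percent, with 95% Wilson intervals) for cadherin-superfamily peaks in dark grey and all peaks with a gene in light grey, in set 1 and set 2. Member peaks in long internal or first coding exons reach 56.0% and 67.6%, where all peaks reach 12.2% and 13.9%.

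The knockdown libraries held 48 and 29 member peaks with Mettl14 knockdown, 35 and 31 with Mettl3 knockdown (set 1 and set 2), against 50 and 37 in scramble. The counts of the knockdown and scramble libraries overlap, while within each set both knockdown libraries had fewer than the scramble library. The 4 knockdown libraries averaged 35.8 ± 8.54 peaks and the 2 scramble libraries 43.5 ± 9.19 (SD; difference -7.75, exact permutation test, two-sided, p = 0.267, adjusted p = 0.5 over 12 tests). As a percent of all listed peaks, members made up 0.840 and 0.664 with Mettl14 knockdown, 0.688 and 0.677 with Mettl3 knockdown, against 0.634 and 0.680 in scramble, so the lower count of peaks is not lower as a share.

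The summed genomic width of member peaks, parts outside exons included, did separate. Member peaks covered 24852 and 15275 nt with Mettl14 knockdown, 20600 and 14815 nt with Mettl3 knockdown, against 35356 and 30046 nt in scramble. Every knockdown library lay below both scramble libraries (difference -13816 nt, exact permutation test, two-sided, p = 0.133, adjusted p = 0.5), and 0.133 is the smallest p that 4 against 2 libraries can give. This is not particular to members. All listed peaks together covered 3386 and 3063 kb with Mettl14 knockdown, 3225 and 3052 kb with Mettl3 knockdown, against 5212 and 4254 kb in scramble, which separate as well. The median member peak was 425.5 and 445 nt wide with Mettl14 knockdown, 431 and 391 nt with Mettl3 knockdown, against 527.5 and 616 nt in scramble, again with no overlap and p = 0.133 by the same exact permutation test. Over all listed peaks the median widths were 479 and 570 nt with Mettl14 knockdown, 523 and 539 nt with Mettl3 knockdown, against 538 and 651.5 nt in scramble, which do overlap. The knockdown member peaks that overlapped a scramble peak had median widths of 521 and 523 nt with Mettl14 knockdown, 479 and 488 nt with Mettl3 knockdown. Those that overlapped none were narrower, with medians of 243 and 294 nt with Mettl14 knockdown, 236 and 213 nt with Mettl3 knockdown. The difference between member widths and all widths was not tested. With 2 libraries of a knockdown against 2 of scramble the smallest p is 0.333. Depth of the libraries is not in the tables, and its part in these numbers was not tested.

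**Figure D2:**
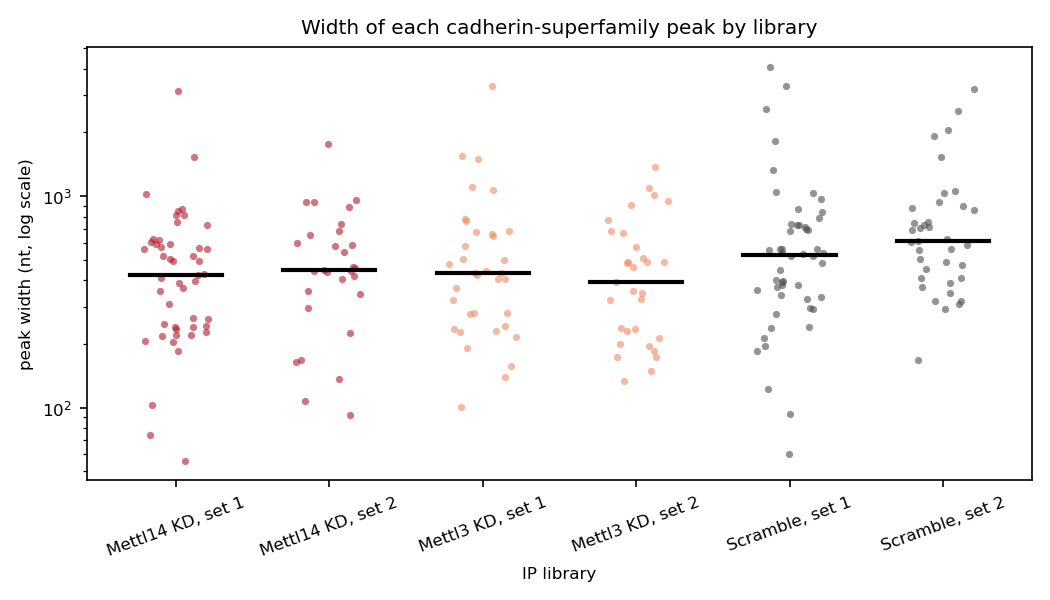
Width of each cadherin-superfamily peak (y axis, nt, log scale) in the 6 IP libraries, with the median as a bar. The 4 knockdown medians sit between 391 and 445 nt, below the scramble medians of 527.5 and 616 nt.

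A scramble peak of a member counted as lost when no knockdown peak overlapped it by at least 1 nt on its strand. With Mettl14 knockdown 18 of 50 member peaks in set 1 (36.0%, interval 24.1 to 49.9) and 17 of 37 in set 2 (45.9%, interval 31.0 to 61.6) were lost, beside 43.3% and 45.9% of all scramble peaks. With Mettl3 knockdown 23 of 50 (46.0%, interval 33.0 to 59.6) and 19 of 37 (51.4%, interval 35.9 to 66.6) were lost, beside 45.4% and 41.9%. These member shares are near the background and give no result about the members. A further yardstick is the other scramble library, from which 36.0% of set 1 member peaks and 16.2% of set 2 member peaks were also absent, beside 41.8% and 17.4% of all peaks. New peaks, listed in a knockdown library with no scramble overlap, numbered 15 of 48 and 9 of 29 with Mettl14 knockdown, beside a background of 18.9% and 31%, and 6 of 35 and 11 of 31 with Mettl3 knockdown, beside 12.8% and 28.1%. New member peaks were thinly covered, with median tags of 13 and 21 in the Mettl14 tables and 11 and 11 in the Mettl3 tables. The knockdown peaks of members that overlapped a scramble peak had median tags of 50, 58, 56 and 45 in the same order.

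Over the 78 merged peaks, 12 (15.4%) were present in all 6 libraries, where the background over all merged peaks was 20.3%. They were wide and well covered, with a median span of 939.5 nt and median tags of 72.5. The 24 merged peaks seen with a knockdown alone (30.8%, background 20.3%) had a median span of 234.5 nt and median tags of 11. The 3 present in both scramble libraries and in no knockdown library (3.85%, background 4.7%) were in Celsr2, Celsr3 and the gamma cluster.

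**Figure D3:**
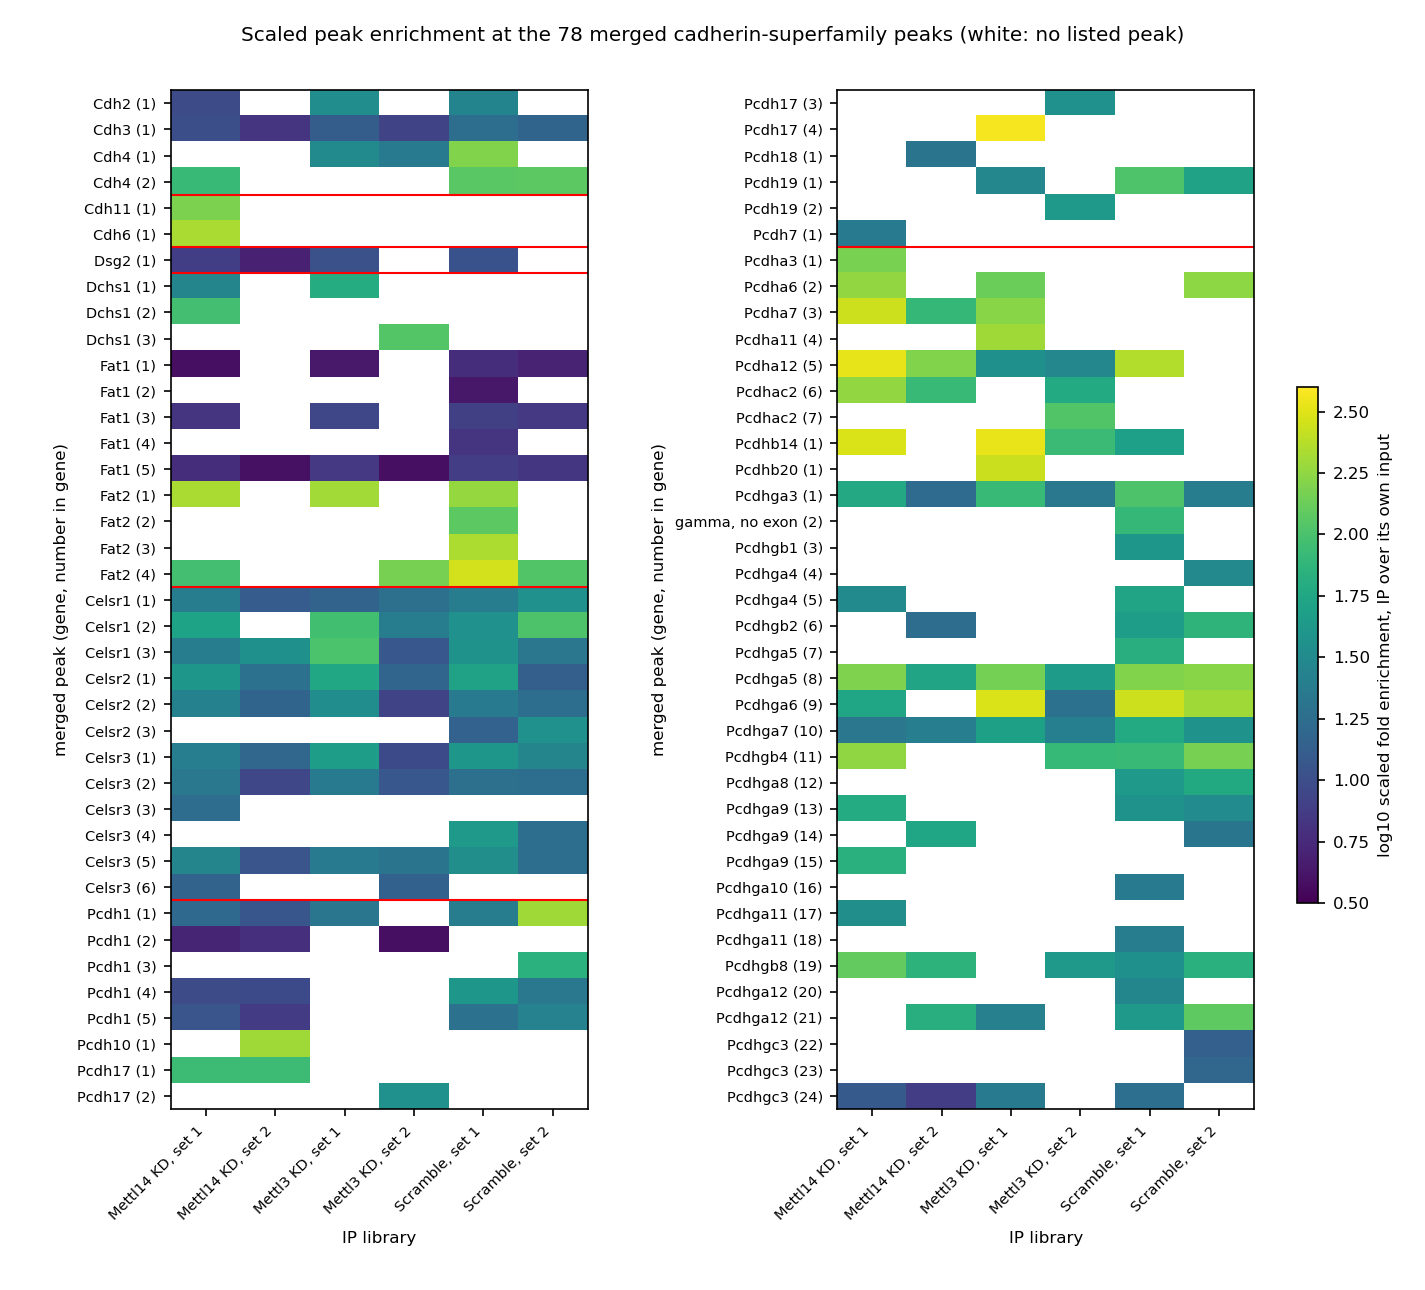
Scaled fold enrichment (colour, log10) of the 78 merged cadherin-superfamily peaks (rows, by gene and number within the gene, red lines between roles) in the 6 IP libraries (columns). White means that no peak is listed, and 12 rows are filled in all 6 columns.

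Among classical cadherins, P-cadherin (Cdh3), an adhesion molecule of epithelia and placenta, had 1 peak over its stop codon (chr8:106555246-106555800) in all 6 libraries. The scaled enrichments were 10.2 and 6.63 with Mettl14 knockdown, 13.2 and 8.57 with Mettl3 knockdown, against 18.1 and 15.0 in scramble. Both knockdowns lay below both scramble libraries. In the authors' deposited tables Mettl14 knockdown gave log2 changes of -0.83 and -1.18 and Mettl3 knockdown -0.46 and -0.81, and Cdh3 was lower in all 4 tables, alone among the 12 members listed in all of them. Of 3663 genes listed in all 4 tables, 25% were lower in all 4. With the median of all shared peaks set to 0, Cdh3 was no longer lower in both Mettl3 tables. Its Mettl14 knockdown peak in set 2 has an FDR of 2.91% in the authors' deposited table, so it also left the Mettl14 list at an FDR of at most 1%.

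R-cadherin (Cdh4), a neural and retinal adhesion molecule, had 2 peaks in its last exon. The authors' deposited tables list the one over the stop codon as lost in set 1 with Mettl14 knockdown, at a log2 change of -2.35 in set 1 and as new in set 2 with Mettl3 knockdown. The more 3′ peak had -0.48 in set 1 and was lost in set 2 with Mettl14 knockdown, and was lost in both sets with Mettl3 knockdown. These are small peaks, with 5 to 21 tags. N-cadherin (Cdh2), the adhesion molecule that marks mesenchymal and neural cells, had a listed peak in set 1 alone, where the authors' deposited tables give a log2 change of -1.54 for Mettl14 knockdown and 0.27 for Mettl3 knockdown. The type II cadherins Cdh6 and Cdh11 had 1 peak each, in the Mettl14 knockdown library of set 1, with 11 and 5 tags.

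The desmosomal member was desmoglein 2 (Dsg2), which links cells at desmosomes. Its 3′ UTR peak had scaled enrichments of 7.68 and 4.94 in the Mettl14 knockdown libraries, 10.5 in the Mettl3 knockdown library of set 1 and 10.7 in the scramble library of set 1. It was not listed in the Mettl3 knockdown or scramble libraries of set 2.

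Fat1, a giant cadherin that acts in planar polarity and growth control, had the widest and most heavily covered member peaks. The 3268-nt exon that holds its start codon lay under a peak of 3128 nt with Mettl14 knockdown and 3307 nt with Mettl3 knockdown in set 1, and of 3299 and 3198 nt in the scramble libraries of set 1 and set 2. Neither knockdown library of set 2 listed it. Its scramble peak there held 900 tags over 3198 nt, but its enrichment was low, at 5.05. The median over member peaks of that library was 30.78. In set 1 the authors' deposited tables give this start codon peak a log2 change of -0.64 for Mettl14 knockdown and -0.45 for Mettl3 knockdown. A 4087-nt peak over a further long exon of 4068 nt was listed in the scramble library of set 1 alone, with 797 tags. Its enrichment was 4.32, where the member median of that library was 39.4.

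The Fat1 peak over the stop codon (chr8:45050631-45051737) was present in every library. Its scaled enrichments were 5.90 and 3.92 with Mettl14 knockdown, 7.02 and 3.82 with Mettl3 knockdown, against 7.59 and 6.82 in scramble, so that the Mettl3 knockdown library of set 1 lay between the scramble libraries. In the authors' deposited tables Mettl14 knockdown gave log2 changes of -0.36 and -0.80 there and Mettl3 knockdown -0.11 and -0.83. Fat1 was lower in both sets with Mettl14 knockdown and mixed in set 1 with Mettl3 knockdown, where its exon 22 peak had a log2 change of 0.16 in the authors' deposited table.

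Fat2, a relative of Fat1 known from cerebellum and migrating epithelia, had narrow peaks. Its exon 2 peak had log2 changes of -1.59 with Mettl14 knockdown in set 1 and 0.46 with Mettl3 knockdown in set 2, and was lost in the other two tables, by the authors' deposited tables. Dchs1, the ligand of the Fat4 cadherin, had 3 merged peaks, none of them in a scramble library. They held 8 to 24 tags.

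The seven-pass Celsr genes, vertebrate counterparts of the fly polarity gene flamingo, held 7 of the 12 merged peaks present in every library. These were 7 of 12 merged Celsr peaks (58.3%), beside 20.3% of all merged peaks. The listed Celsr peaks numbered 12 and 8 with Mettl14 knockdown, 11 and 12 with Mettl3 knockdown, against 12 and 11 in scramble, so the groups overlap. Of the scramble peaks, 3 of 12 and 3 of 11 were lost with Mettl14 knockdown, beside 43.3% and 45.9% of all scramble peaks. With Mettl3 knockdown 3 of 12 and 2 of 11 were lost, beside 45.4% and 41.9%. Peaks of 3 genes are not independent, and these differences were not tested.

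Celsr1, which acts in hair follicle and neural tube polarity, had a first exon that the libraries divided into peaks differently. The 2 scramble libraries differed in this from each other too, and a change with knockdown was not tested. The scramble library of set 1 had a peak of 2580 nt there beside one of 332 nt, and that of set 2 had adjoining peaks of 1919 and 1524 nt. Knockdown libraries listed 2 or 3 shorter peaks of 405 to 908 nt over the same exon. In the authors' deposited tables their log2 changes ran from -0.80 to 0.74 for Mettl14 knockdown and from -1.41 to 1.42 for Mettl3 knockdown. The 3′ UTR peak of Celsr1 had scaled enrichments of 24.6 and 13.0 with Mettl14 knockdown, 14.8 and 19.0 with Mettl3 knockdown, against 24.7 and 36.8 in scramble. In set 1 the Mettl14 knockdown value was nearly that of scramble, and the other 3 knockdown values were below the scramble value of their set. The other Celsr1 peak, at the stop codon, had a log2 change of 0.50 in the Mettl14 table of set 1 and was lost in that of set 2. In the authors' deposited Mettl3 tables it had 1.34 and -2.08.

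Celsr2, active in brain development, kept its long first-exon peak in every library. The authors' deposited tables give it 0.22 and -0.25 (log2, set 1 and set 2) for Mettl14 knockdown, and 0.56 and -1.06 for Mettl3 knockdown. For its stop codon peak the same tables give -0.33 and 0.51 for Mettl14 and 0.17 and 0.16 for Mettl3, so its direction differed between the sets for Mettl14. The peak at its start codon, with scaled enrichments of 14.5 and 36.3 and 45 and 60 tags in scramble, was listed in no knockdown library.

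Celsr3, needed for axon tract formation, had its exon 35 peak (chr9:108848605-108849495) in every library. Its scaled enrichments were 28.8 and 11.4 with Mettl14 knockdown, 23.2 and 20.2 with Mettl3 knockdown, against 34.8 and 18.1 in scramble. By the authors' deposited tables Mettl14 knockdown changed it by -0.27 and -0.67 on the log2 scale, and Mettl3 knockdown by -0.58 and 0.15. The exon 2 peak, with 40 and 56 tags in scramble, was lost in all 4 tables. A peak over its stop codon was listed with 23 tags in the Mettl14 knockdown library of set 1 and with 23 in the Mettl3 knockdown library of set 2, and in no scramble library.

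**Figure D4:**
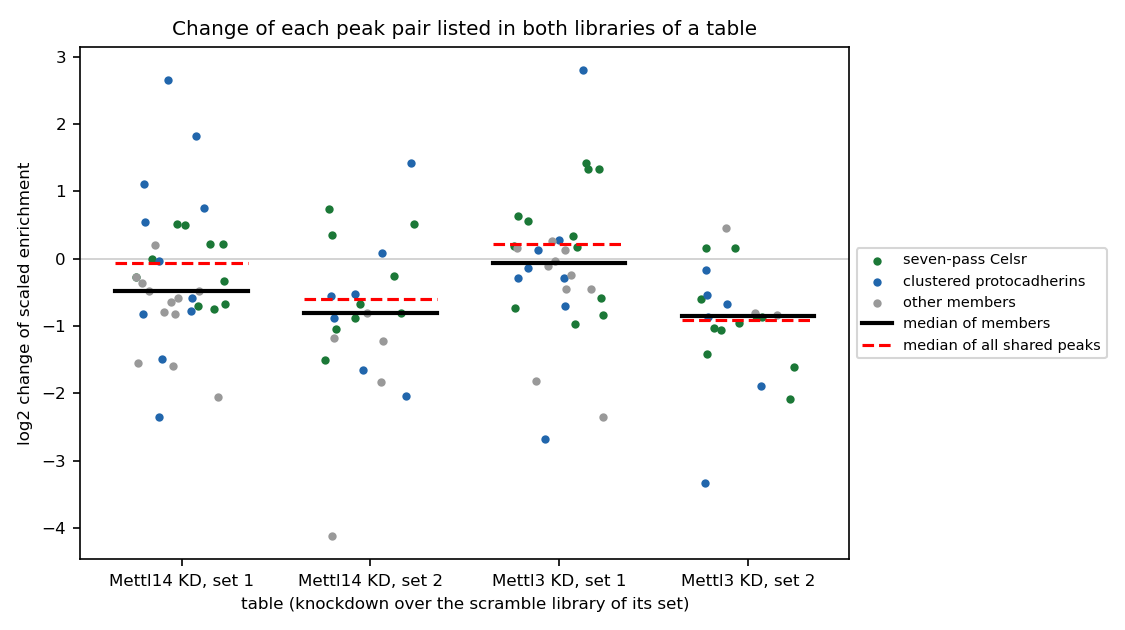
The log2 change of scaled enrichment (y axis) for each member peak pair listed in both libraries of a table, by table, with the member median as a black bar and the median of all shared peaks as a red dashed bar. Celsr points lie on both sides of 0 in every table, and members have medians of -0.48, -0.80, -0.07 and -0.85.

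Over the shared pairs of all members, 23 of 33 and 16 of 21 were lower with Mettl14 knockdown (background 54.6% and 84.8%), with median log2 changes of -0.48 and -0.80 beside -0.06 and -0.59 over all shared pairs, by the authors' deposited tables. With Mettl3 knockdown 16 of 30 and 17 of 20 were lower (background 35.2% and 93%), with medians of -0.07 and -0.85 beside 0.22 and -0.91. Changes of at least 2-fold were fewer. With Mettl14 knockdown 5 of 33 and 8 of 21 pairs were lower by that much (background 11.3% and 26.8%) and 3 and 1 higher (9.11% and 2.42%). With Mettl3 knockdown 3 of 30 and 7 of 20 were lower by that much (6.62% and 44.2%) and 4 and 0 higher (16.1% and 1.11%). Set 2 was lower than set 1 for members and for all peaks alike. With all of its peaks counted, a gene was called lower if each was lost or had a negative change and higher if each was new or positive. With Mettl14 knockdown 6 of 19 listed members were lower and 7 higher in set 1 (background 57.8% and 27.4% of genes), and 6 of 15 were lower and 4 higher in set 2 (70.6% and 19.7%). With Mettl3 knockdown 5 of 17 were lower and 5 higher in set 1 (49.6% and 34.7%), and 4 of 14 were lower and 4 higher in set 2 (75.6% and 16%). In both sets, 4 members were lower with Mettl14 knockdown, Cdh3, Cdh4, Fat1 and Pcdh19, out of 13 listed in both sets, beside a background of 41.8% of genes. With listed peaks of an FDR of at most 1%, lost scramble peaks included, Fat1 was the only one of these 4 still lower in both. Fat2 was added, from lost scramble peaks alone. Only Cdh3 of 14 was lower in both sets with Mettl3 knockdown, beside 33.5%. Higher in both sets were Pcdh17 with Mettl14 knockdown, beside 7.55% of genes, and Pcdh17, Dchs1 and Pcdhb14 with Mettl3 knockdown, beside 5.81%. With Mettl3 knockdown the Pcdh17 and Dchs1 peaks lay at different places in set 1 and set 2, so no site was repeated for these genes. Pcdh17 with Mettl14 knockdown and Pcdhb14 with Mettl3 knockdown had the same merged peak in both sets.

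Of the non-clustered protocadherins, Pcdh1, an adhesion molecule of airway epithelium, had the most peaks. Its listed peaks numbered 4 and 4 with Mettl14 knockdown, 1 and 1 with Mettl3 knockdown, against 3 and 4 in scramble. The Mettl3 knockdown libraries were thus below the other 4 for this gene. Over all listed peaks they were not, with 5087 and 4577, against 5717 and 4367 with Mettl14 knockdown and 7886 and 5438 in scramble. Of the scramble peaks, 2 of 3 and 4 of 4 were lost with Mettl3 knockdown, beside 45.4% and 41.9% of all scramble peaks. With Mettl14 knockdown 0 of 3 and 1 of 4 were lost, beside 43.3% and 45.9%. These are few peaks of 1 gene, and the difference was not tested. The exon 2 peak that both scramble libraries listed held 87 and 106 tags with Mettl14 knockdown, and had log2 changes of -2.05 and -1.23 in the authors' deposited Mettl14 tables. The last-exon peak had -4.12 with Mettl14 knockdown in set 2, the lowest of all members, where the scramble peak had an enrichment of 200.5 on 24 tags and the knockdown peak 11.6 on 50 tags. The same peak had -0.59 with Mettl14 knockdown and -0.24 with Mettl3 knockdown in set 1, and was lost with Mettl3 knockdown in set 2. A further exon 2 peak was listed with 86 and 130 tags in the Mettl14 knockdown libraries and with 83 tags in the Mettl3 knockdown library of set 2, and in no scramble library.

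Pcdh19, whose human gene is linked to epilepsy in females, had a first-exon peak with scaled enrichments of 105.4 and 51.6 in scramble. It was lost in both Mettl14 knockdown libraries and in the Mettl3 knockdown library of set 2, and had 29.8 in that of set 1, a log2 change of -1.82 in the authors' deposited table. Pcdh17, a neural protocadherin, had peaks in each of the 4 knockdown libraries and in neither scramble library, at 4 different merged peaks of 8 to 16 tags. Pcdh7, Pcdh10 and Pcdh18 were listed once each, in a Mettl14 knockdown library, with 19, 10 and 30 tags.

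The protocadherin gamma cluster, listed under Pcdhga11, carried the most peaks of any member, with 24 merged peaks on chromosome 18. Each gamma gene has its own variable first exon, spliced to constant exons that all share. Of the 24 merged peaks, 23 lay in variable exons, those of 15 different genes out of 22 annotated, and none lay in a constant exon. Those in all 6 libraries were in the variable exons of Pcdhga3, Pcdhga5 and Pcdhga7. The cluster had 11 and 8 listed peaks with Mettl14 knockdown, 6 and 6 with Mettl3 knockdown, against 18 and 14 in scramble, with no overlap between knockdown and scramble libraries. All listed peaks numbered 5717 and 4367 with Mettl14 knockdown, 5087 and 4577 with Mettl3 knockdown, against 7886 and 5438 in scramble, which overlap. Of the scramble peaks, 9 of 18 and 7 of 14 were lost with Mettl14 knockdown and 12 of 18 and 8 of 14 with Mettl3 knockdown. Over all scramble peaks 43.3% and 45.9% were lost with Mettl14 knockdown, 45.4% and 41.9% with Mettl3 knockdown. The Wilson interval of the highest of the cluster's shares, 66.7% with Mettl3 knockdown in set 1, ran from 43.7% to 83.7% and holds its background, so the losses give no result about the cluster.

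The Pcdhga5 exon peak had scaled enrichments of 157.1 and 53.7 with Mettl14 knockdown, 146.2 and 45.7 with Mettl3 knockdown, against 160.7 and 168.8 in scramble. All 4 knockdown values lay below both scramble values. The Pcdhga3 and Pcdhga7 exon peaks were also lower in all 4 of the authors' deposited tables, with log2 changes from -0.82 to -0.17 for Pcdhga3 and from -1.49 to -0.29 for Pcdhga7. Without the scaling constants of the tables, 3 of 4 were lower for each of these exons. Lower values in all 4 tables were not particular to the cluster, as the Fat1 stop codon, Celsr1 3′ UTR and Cdh3 peaks had them too. Over all shared pairs 54.6% and 84.8% were lower with Mettl14 knockdown, 35.2% and 93% with Mettl3 knockdown. Peaks over Pcdhgb8 and Pcdhga9 were not uniform, and for Pcdhgb8 the authors' deposited tables give log2 changes of 1.81 and 0.08 in the Mettl14 tables and -0.67 in the Mettl3 table of set 2. The variable exons are near-copies of each other, and how reads that fit several of them were counted is not known here, so the share of a single exon is uncertain. A few peaks over the Pcdhga1 and Pcdhga2 exons carried no gene name and are not members. They numbered 4 and 5 with Mettl14 knockdown, 3 and 4 with Mettl3 knockdown, against 2 and 3 in scramble. Counted in, the cluster had 15 and 13 peaks with Mettl14 knockdown, 9 and 10 with Mettl3 knockdown, against 20 and 17 in scramble. As a share of all listed peaks of a library, these totals overlapped scramble with Mettl14 knockdown. With Mettl3 knockdown they lay below both scramble shares. These shares were not tested.

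**Figure D5:**
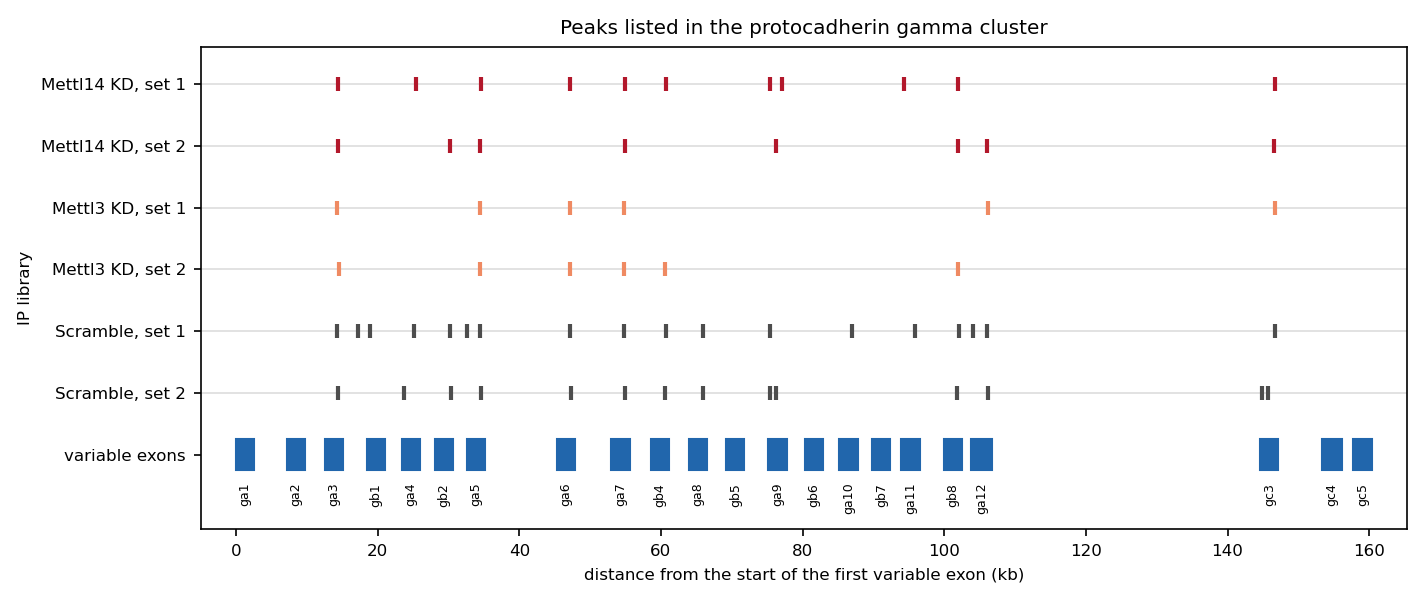
Centres of the listed peaks in the protocadherin gamma cluster by library (rows), against distance in kb from the start of the first variable exon, with the variable exons as blue boxes. The scramble libraries hold 18 and 14 peaks and the knockdown libraries 6 to 11, nearly all within variable exons.

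The alpha cluster, listed under Pcdhac1, had more listed peaks in each knockdown library than in either scramble library. Its listed peaks numbered 5 and 3 with Mettl14 knockdown, 4 and 3 with Mettl3 knockdown, against 1 and 1 in scramble. Over all listed peaks each knockdown library had fewer than the scramble library of its set. With 1 scramble peak per set, and peaks of a cluster not independent, this difference was not tested. All 7 merged peaks were in variable exons, of 6 genes, and 5 of the 7 were seen in knockdown libraries alone (background 20.3% of merged peaks). They were narrow, 149 to 395 nt, with 9 to 27 tags, and the only one with a shared pair, in the Pcdha12 exon, changed in set 1 by 0.54 on the log2 scale under Mettl14 knockdown and by -2.67 under Mettl3 knockdown, by the authors' deposited tables. In the beta cluster the Pcdhb14 peak changed by 2.65 under Mettl14 knockdown and 2.80 under Mettl3 knockdown in set 1, on 16 tags each, by the same tables.

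Possible partners of the cadherins were counted from a list of 43 genes. It held catenins and other junction genes, nectins and planar polarity genes, and also genes such as Zeb1, Twist1, Yap1, Lats1 and Lats2. Of the 43 genes 21 had a listed peak, and beta-catenin (Ctnnb1) and alpha-catenin (Ctnna1) had none. With Mettl14 knockdown 8 of 17 listed in both sets were lower in both and 2 higher, beside backgrounds of 41.8% and 7.55%. With Mettl3 knockdown 6 of 16 were lower and 0 higher, beside 33.5% and 5.81%. Vangl1, Vangl2 and Prickle1, core planar polarity proteins that work with the Celsr cadherins, were lower in all 4 tables, as were nectin-2 (Pvrl2) and Twist1, a repressor of E-cadherin. These are 5 of the 15 partners listed in all 4 tables, beside a background of 25%. The count is small and near that share, and gives no result about the partners. Other polarity genes of the list went otherwise. Prickle2 was mixed in set 1 and higher in set 2 with Mettl14 knockdown, and lower, then higher with Mettl3 knockdown. Fzd3 was lower in set 1 with either knockdown and higher in set 2 with Mettl3 knockdown. By the authors' deposited tables Mettl14 knockdown changed the shared peak of Vangl1 by -1.25 and -1.82 on the log2 scale and Mettl3 knockdown by -0.13 and -1.62. For Prickle1 the same tables give -0.53 and -1.23 under Mettl14 knockdown, and -0.35 and -1.89 under Mettl3 knockdown.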

How the data were processed

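The data are 4 deposited tables of m6A peaks from 6 IP libraries. Per the submitters' processing notes, the tools included TopHat2 2.0.6 and Bowtie 0.12.7, and also Picard 1.74, SAMtools 0.1.18, cutadapt 1.1 and CASAVA 1.8.2, and the build was mm10. No source used here gives the peak caller's version. MACS peak names appear per the file headers, with calls made strand by strand for each IP library against its own input library. The deposited fold enrichment is the authors' ratio of IP to input within a peak. For knockdown peaks the deposited scaled ratio multiplies it by 1 constant per table, 0.906 and 0.777 for Mettl14 and 1.00 and 0.609 for Mettl3 (set 1 and set 2). The deposited signed fold score compares scaled ratios of knockdown and scramble, and was turned into a log2 change here. Solved for the scramble value, it equalled the deposited enrichment within 0.01 for 879 of 879 and 700 of 700 peaks in set 1 and 481 of 481 and 704 of 704 in set 2. Peak folds and scores are the authors' own. Tags per listed peak ran from 4 to 2151, and library depth is unknown.

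Genes whose peaks went both ways in a table were called mixed. Peaks overlapped if they shared 1 nt or more on a strand. Enrichment at a merged peak is that of the widest peak of the library. Positions used 1 GENCODE M21 transcript per gene. Values of 1 number per library were compared by exact permutation tests with Benjamini-Hochberg adjustment over 12 tests, and the rest is counted beside the same share over all peaks or genes. Values by table are given for members with a scramble peak in both sets or the same call in both sets of a knockdown, and a few others were named after their values were seen. The members, lists and tests were chosen with earlier results of these data known. Overlap and fate functions were tested on simulated data. Python 3.11.15, numpy 2.4.6, pandas 2.3.3, scipy 1.17.1 and matplotlib 3.10.9 were used.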

Additional observations from a re-analysis of the deposited data

How the results depend on the processing

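The Mettl14 and Mettl3 tables of a set share a scramble library, and the sets are tied to no replicate number. With the set as a replicate block, chosen after seeing the data, the difference in member peaks was again -7.75 (exact permutation within sets, two-sided, p = 0.333, where 0.111 is the smallest possible), with 4 of 4 knockdown libraries lower. Over both sets, the percent of scramble peaks lost with Mettl14 knockdown was 40.2 and became 48.3 when at least 50% of a scramble peak had to be covered. The median log2 change with Mettl14 knockdown was -0.59, -0.28 with the median of all shared peaks set to 0 and -0.27 with knockdown peaks of an FDR of at most 1%. The genes lower in both sets with Mettl14 knockdown numbered 4, and 2 (Fat1 and Fat2) with listed peaks, lost scramble peaks included, of an FDR of at most 1%. With Mettl3 knockdown the 1 gene became 0 with the median set to 0, and 4 or 5 genes were lower in the single sets. The difference in peaks per library was -7.75, and 0.060 percentage points as a share of all listed peaks. The median log2 change with Mettl3 knockdown was -0.45, and stayed negative, from -0.85 in set 2 alone to -0.07 in set 1 alone, with -0.12 when the scaling constants were left out. The other alternatives run kept the direction of these results. Scramble peaks with an FDR of at most 1% or with at least 20 tags were not compared, because 24 of 50 and 14 of 37 member scramble peaks have no tags or FDR listed in the tables. Total depth is unknown, so a lost peak in a shallow library cannot be told apart from a lost mark.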
